A study of Homo sapiens with 8 samples.

Results

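Recombinant human endotrophin was added to sorafenib-resistant SK-Hep1 cells in which COL6A3 had been silenced, and the 2 libraries of these cells were compared with 2 libraries of the same resistant cells given the COL6A3 siRNA alone. The comparison took in every named gene that passed a standard filter on low counts, which kept 15684 of the 28279 entries of the count table, and it used 4 of the 8 libraries of the series. SK-Hep1 is an established line from a liver tumour that carries features of endothelium, and sorafenib is a kinase inhibitor given against advanced liver cancer. Both groups were resistant and both carried the siRNA, so endotrophin was the labelled difference between them. A second pair of libraries, from resistant cells with control siRNA and no endotrophin, gave the level before silencing. The remaining 2 libraries came from sorafenib-sensitive cells with control siRNA and were not compared here, but took part in the filter, the scaling and the estimate of spread.

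Endotrophin is the C-terminal piece cut from the alpha-3 chain of collagen VI, which COL6A3 encodes. It acts as a soluble signal and is best known from fat tissue and mammary tumours, where it has been tied to fibrosis, TGF-beta signalling and changes in lipid handling. The cell-surface proteins ANTXR1 and CSPG4 (NG2) have been described as its receptors. The sources used here do not give the siRNA sequence, the dose and duration of endotrophin, whether siRNA-only cells received its carrier, or whether the drug was still on the cells at harvest. The cells were 1 resistant line grown in serum, and the labels call the 2 libraries of a group biological replicates within a single batch. Nothing further is said of separate cultures, so p-values measure the spread between these samples.

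The 4 libraries held 31072043 to 44116043 counts, and 16262 to 16594 genes were detected in each. Pearson's r of log2 CPM, a description across genes, was 0.990 within each group and 0.984 to 0.985 between them. CPM are counts set relative to a library's scaled total. Of the cell type markers, ALB, APOA1 and TTR, which define hepatocytes, had 0 counts in all 4 libraries, and 16 of the 20 hepatocyte markers were under 1 CPM in each of them. SERPINA1 and CPS1 of that list were expressed, at 35.0 and 35.5 CPM and at 31.8 and 27.0 CPM with siRNA alone. PECAM1, CDH5 and KDR, which define endothelium, were under 1 CPM, and so were 10 of the 16 endothelial markers in all. ENG and ROBO4 of the same list were expressed, at 56.8 and 62.0 CPM and at 38.9 and 48.2 CPM with siRNA alone. PTPRC, the pan-leukocyte gene, was under 1 CPM, and LYZ and CD3E had 0 counts. CD68 of the macrophage and leukocyte list was at 92.1 and 109 CPM with siRNA alone. Summed hepatocyte markers lay at 65.3 to 71.9 CPM with siRNA alone and 79.5 to 82.1 CPM with endotrophin, and among the 5 cell type lists SPP1 of the bile-duct and progenitor list was the single gene called. In bulk RNA, fewer cells of a kind and less RNA per cell cannot be told apart.

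With endotrophin 1218 genes changed, 7.77% of those tested. Of these 691 rose (4.41%) and 527 fell (3.36%), by the quasi-likelihood test of edgeR with Benjamini-Hochberg adjustment over all genes tested and a threshold of 0.05. Most changes were small: the middle log2 change was 0.48 among genes that rose and -0.60 among genes that fell, and 106 genes (0.676%) changed at least 2-fold, 41 upward and 65 downward. The genes called were abundant, with a median of 91.3 CPM for those that rose and 54.9 CPM for those that fell, against 20.2 CPM over all genes. Gene length here is the length implied by the counts and FPKM together, which can exceed that of a single transcript. Its median was 5018 bases for genes that fell, 3433 bases for those that rose and 3534 bases over all genes. The part of length in these calls was not tested. In all but 1 called gene the libraries of the groups did not overlap, where 52% of all genes tested showed no overlap (26.7% upward and 25.3% downward). Leaving out siRNA replicate 1, siRNA replicate 2, endotrophin replicate 1 or endotrophin replicate 2 left 517, 688, 539 and 441 genes called. Counts of a list after leaving out 1 library are given below in that same order, and the share of a list's tested members called in a direction is to be read against the 4.41% and 3.36% of all genes.

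**Figure D1:**
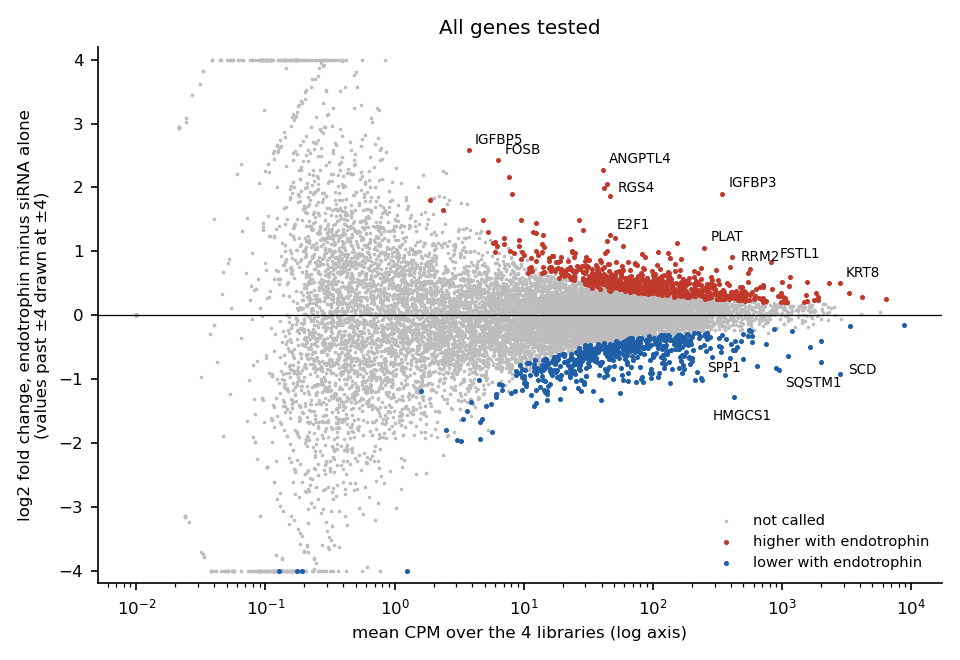
Log2 fold change with endotrophin against the mean level over the 4 libraries, for the 15684 genes tested; red and blue points passed the test. The 691 red and 527 blue points lie mostly within 1 log2 unit of 0 and at 10 CPM or more, and the 4 blue points at the lower edge had 0 counts in both endotrophin libraries.

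COL6A3, the silenced gene, checked the labels; it lies at chr2:237324018-237414164 in RefSeq's annotation of GRCh38.p14. It stood at 135 and 136 CPM in the resistant control libraries, at 42.7 and 45.0 CPM with the siRNA alone, and at 65.9 and 71.3 CPM with endotrophin. Both endotrophin libraries lay above both siRNA libraries and below both control libraries. COL6A3 was thus less reduced with endotrophin than with siRNA alone, and the part of this in the other differences was not tested. The log2 difference between endotrophin and siRNA alone was 0.65 (SE 0.11, edgeR quasi-likelihood adjusted p = 0.000739). By limma on log2(FPKM + 1) the adjusted p was 0.0639, past the threshold. The partner chains COL6A1 and COL6A2 differed by -0.04 (edgeR quasi-likelihood adjusted p = 0.914) and 0.17 (0.390) and were not called. COL6A1, which pairs with COL6A3 in the collagen VI trimer, was at 121 and 135 CPM with siRNA and 125 and 124 CPM with endotrophin, against 30.0 and 41.1 CPM in control cells.

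The receptor ANTXR1 was well expressed and level, at 342 and 326 CPM with siRNA alone and 361 and 340 CPM with endotrophin. CSPG4 was scarce, at 1.29 and 0.607 CPM with siRNA and 4.03 and 2.88 CPM with endotrophin, and its log2 difference of 1.86 (SE 0.999) was not called. Of the 9 genes in the list of receptors and of proteases able to release the fragment, MMP14 alone was called. MMP14, a membrane-bound collagenase, rose by 0.30 on the log2 scale, and without siRNA replicate 1, endotrophin replicate 1 or endotrophin replicate 2 its adjusted p was 0.349, 0.257 and 0.0946. CD44, the hyaluronan receptor, was at 1767 and 1829 CPM with siRNA and 1641 and 1630 CPM with endotrophin, a log2 difference of -0.14 that was not called (edgeR quasi-likelihood adjusted p = 0.111).

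The clearest single change was in IGFBP3, which lies at chr7:45912245-45921272 and encodes a binding protein for insulin-like growth factors. It was at 142 and 147 CPM with siRNA alone and at 522 and 558 CPM with endotrophin, 3.74-fold higher (log2 1.90, SE 0.083, edgeR quasi-likelihood adjusted p = 2.29e-12). Control cells had 184 and 167 CPM, above the siRNA libraries and far under the endotrophin ones. PLAT, which encodes tissue plasminogen activator, was at 166 and 156 CPM with siRNA, at 325 and 346 CPM with endotrophin and at 166 and 152 CPM in control cells. RGS4, a brake on G-protein signalling, rose from 15.3 and 19.0 to 71.4 and 71.4 CPM, and ANGPTL4, a secreted inhibitor of lipoprotein lipase, rose from 12 and 15.8 to 61.3 and 74.3 CPM. FSTL1, a secreted glycoprotein, rose from 576 and 606 to 1065 and 1033 CPM, and RRM2, a subunit of ribonucleotide reductase, from 274 and 295 to 510 and 562 CPM. For all 6 genes the groups lay well apart, and each kept its call without any 1 library.

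**Figure D2:**
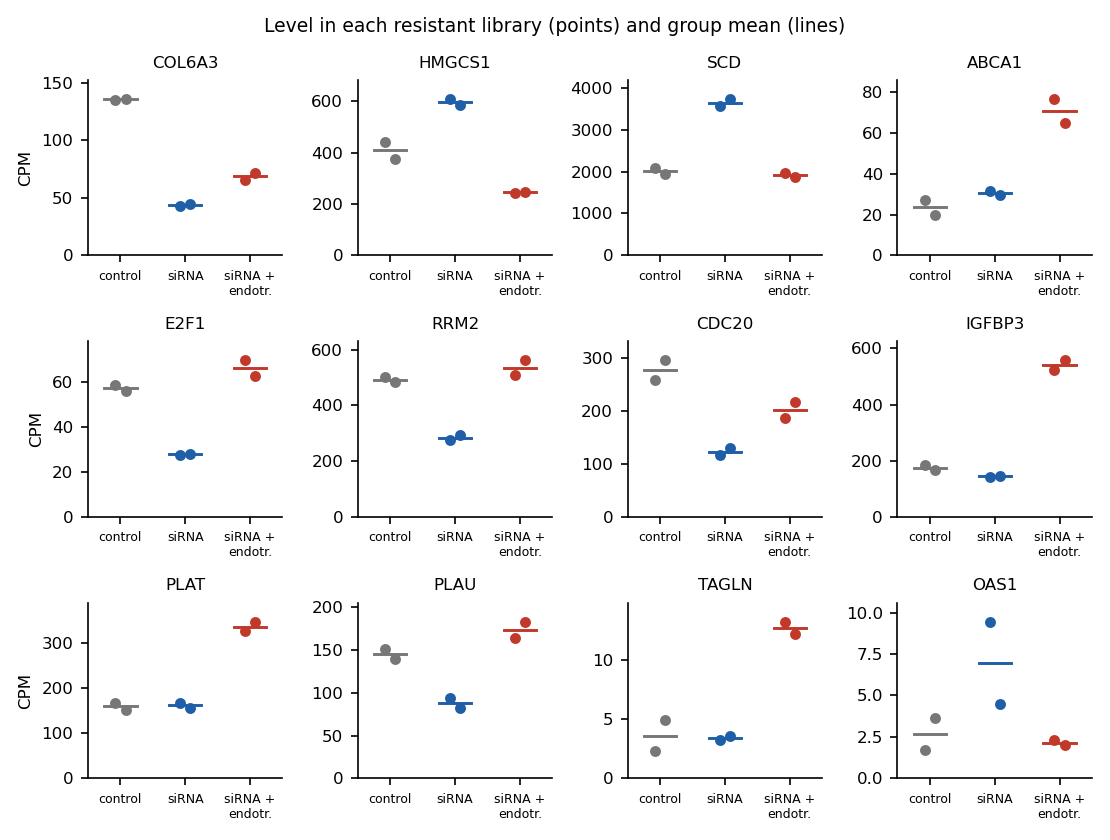
Level of 12 genes in CPM (vertical axes from 0) in the 2 libraries each of resistant control cells, COL6A3 siRNA, and siRNA with endotrophin; points are libraries and lines are group means. IGFBP3 and PLAT with endotrophin stand above both other groups, E2F1 and RRM2 lie near the control level and HMGCS1 below it.

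Other large rises were in genes at lower levels. KRT81, a hair keratin whose near-identical copies make its count uncertain, was at 20.002 and 13.5 CPM with siRNA and 49.5 and 83.6 CPM with endotrophin. RRAD, a small GTPase of muscle and heart, went from 18.8 and 21.3 to 72.7 and 73.5 CPM, where control cells had 5.77 and 3.03 CPM. CRISPLD2, a secreted protein, went from 2.99 and 2.62 to 11.7 and 13.5 CPM, and all 3 kept the call without any 1 library. IGFBP5, another carrier of insulin-like growth factors, rose from 1.70 and 0.442 to 5.19 and 7.56 CPM (log2 2.59), with an adjusted p of 0.0706 without siRNA replicate 2. FOSB, a subunit of the AP-1 transcription factor, rose from 1.23 and 2.70 to 9.15 and 12.2 CPM (log2 2.43), with an adjusted p of 0.110 without siRNA replicate 1 and 0.109 without endotrophin replicate 2. The rises of PXDNL (1.81), AK4 (1.65) and ENPP2 (1.496), all at under 10 CPM, were lost whichever library was left out, with adjusted p up to 0.227, 0.199 and 0.0964, reached each time without siRNA replicate 2.

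Sterol and fatty-acid synthesis fell as a block. These enzymes build cholesterol and fatty acids from acetyl-CoA, and in mammals their genes are switched on together by the SREBP transcription factors when sterols are short. Of the 36 genes of the list, all tested, 27 fell, where 3.36% of all genes fell, and 1 rose, and the median log2 difference was -0.67 against 0.00097 over all genes. Summed over the list, the siRNA libraries held 12952 and 13926 CPM and the endotrophin libraries 8315 and 8084 CPM, where the control libraries held 12713 and 13188 CPM. Without 1 library the number that fell was 23, 22, 21 and 21, and by limma on log2(FPKM + 1) it was 25. Against control cells the median difference of the list was 0.07 with siRNA alone and -0.52 with siRNA and endotrophin, comparisons that share libraries with this one.

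At the head of the pathway, HMGCS1, which makes HMG-CoA, was at 610 and 586 CPM with siRNA alone and at 244 and 248 CPM with endotrophin, a log2 difference of -1.28 (SE 0.080, edgeR quasi-likelihood adjusted p = 1.07e-09). Control cells had 443 and 375 CPM, so the endotrophin libraries were the lowest of the 6. LSS, which closes the sterol ring, fell from 307 and 336 to 163 and 155 CPM, and FDFT1, which makes squalene, from 285 and 288 to 150 and 158 CPM. Between them, IDI1 (-1.01), FDPS (-1.06), MVD (-0.78) and SQLE (-0.58) fell as well. Later steps fell too, with MSMO1 at -0.98, CYP51A1 at -0.71, SC5D at -0.73 and DHCR7 at -0.76 on the log2 scale. All genes named so far in this paragraph kept their call without any 1 library. PMVK (-0.04) and TM7SF2 (-0.62) did not pass the test.

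On the fatty-acid side, SCD, which puts the double bond into saturated fatty acids, was the gene with the second smallest adjusted p of all. It was at 3562 and 3740 CPM with siRNA alone and at 1966 and 1874 CPM with endotrophin, beside 2075 and 1951 CPM in control cells, and the log2 difference was -0.93 (SE 0.049, edgeR quasi-likelihood adjusted p = 5.78e-11). ACLY, which makes cytosolic acetyl-CoA from citrate, fell from 1124 and 1154 to 640 and 643 CPM, where control cells had 1320 and 1290.5 CPM. ACSS2, which makes acetyl-CoA from acetate, fell most among the called genes of the list, from 58.0 and 54.4 to 23.2 and 21.7 CPM (-1.32). FASN, the fatty-acid synthase, fell by 0.74 and FADS1, a desaturase, by 0.66 on the log2 scale, and these 5 genes kept their call without any 1 library.

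Of the regulators of the pathway, INSIG1, which holds SREBP in the endoplasmic reticulum and is itself an SREBP target, fell with the enzymes, by 0.55 on the log2 scale. SREBF2, which encodes the SREBP of sterol synthesis, was at 126 and 152 CPM with siRNA and 132 and 112 CPM with endotrophin, overlapping groups and no call. SREBF1 was the 1 gene of the list that rose, from 146 and 165 to 205 and 201 CPM (0.38), and without siRNA replicate 1, endotrophin replicate 1 or endotrophin replicate 2 its adjusted p was 0.14998, 0.0770 and 0.0601. STARD4, ELOVL1 and ELOVL5 did not pass the test, with differences of 0.04, -0.02 and -0.06.

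**Figure D3:**
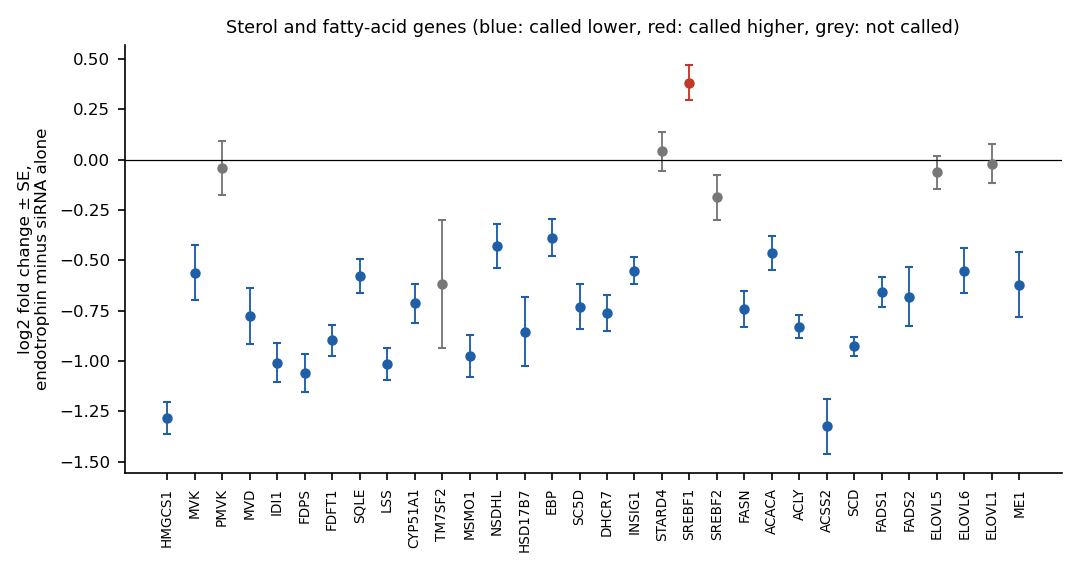
Log2 fold change with endotrophin (point) with its standard error (bar) for 32 of the 36 sterol and fatty-acid genes, in the order of the list. The 25 blue genes lie between -0.39 and -1.32, and SREBF1 is the single red point above 0.

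The promoters of these genes are shown because the members moved together. Stretches are from the RefSeq promoter table (GRCh38.p14), lie upstream of the start site listed there and are read along the gene's strand. Capitals mark CCAAT or its reverse ATTGG, the CCAAT box that the factor NF-Y binds and that often stands beside SREBP sites. The 4 called members with the smallest adjusted p that hold these letters are printed, SCD at chr10:100347022-100347076 (plus), HMGCS1 at chr5:43313483-43313537 (minus), ACLY at chr17:41919023-41919070 (minus) and LSS at chr21:46228895-46228949 (minus).
SCD: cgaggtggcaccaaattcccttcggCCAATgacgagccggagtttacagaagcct
HMGCS1: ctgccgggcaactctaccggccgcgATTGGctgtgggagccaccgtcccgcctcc
ACLY: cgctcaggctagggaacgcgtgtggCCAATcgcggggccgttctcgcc
LSS: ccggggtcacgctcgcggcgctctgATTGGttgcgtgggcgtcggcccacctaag
In the 250 bases before the start site, on either strand, CCAAT stood in 22 of the 29 list members with an entry in the table (75.9%) and in 40.8% of the 11742 tested genes with one. CCAAT was also common in lists, described below, whose called members all rose. It stood in 24 of 40 S-phase genes (60.0%) and 33 of 41 genes of G2 and mitosis (80.5%). The letters TCACNCC or GGNGTGA, part of the sterol regulatory element, stood in 8 of the 29 (27.6%) and in 17.9% of all. In the S-phase and mitotic genes the shares were 12.5% and 14.6%. These matches are descriptions of the letters and not of binding.

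Most genes of lipid storage and efflux were not called. ABCA1, the pump that exports cholesterol, rose from 31.8 and 29.7 to 76.9 and 64.9 CPM, with control cells at 27.2 and 19.8 CPM, a log2 difference of 1.21 (SE 0.16, edgeR quasi-likelihood adjusted p = 2.84e-05). Of the 25 genes tested in this list 4 rose (16.0%, against 4.41% of all genes) and 1 fell (4%, close to the 3.36% of all genes), with a median of 0.04. ANGPTL4 and ACADVL, which starts the mitochondrial oxidation of long-chain fatty acids (0.45), were among those that rose. G0S2, an inhibitor of the lipase that empties lipid droplets, rose by 0.49 with an adjusted p of 0.0665 without endotrophin replicate 2. LPIN1, a phosphatidate phosphatase, fell by 0.38 with an adjusted p of 0.0705 without endotrophin replicate 2.

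Genes of DNA replication rose together. Of the 49 S-phase genes, all tested, 34 rose (69.4%, against 4.41% of all genes) and none fell, and the median log2 difference was 0.52. Their summed level was 3147 and 3216 CPM with siRNA alone, 4600 and 4779 CPM with endotrophin and 4757 and 4708 CPM in control cells. Without 1 library the number that rose was 23, 20, 21 and 18, and by limma on log2(FPKM + 1) it was 20, with none that fell in any of these. Against control cells the median was -0.58 with siRNA alone and -0.05 with siRNA and endotrophin, comparisons that share libraries with this one.

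E2F1, the transcription factor that opens the replication programme, was at 27.5 and 27.8 CPM with siRNA, 69.4 and 62.5 CPM with endotrophin and 58.4 and 55.6 CPM in control cells, 2.38-fold higher with endotrophin (log2 1.25, SE 0.14, edgeR quasi-likelihood adjusted p = 4.42e-06). The siRNA libraries were the lowest of the 6. Of the enzymes that make deoxynucleotides, TK1 rose from 98.9 and 116 to 169 and 206 CPM, and RRM2 rose as given above. All 6 subunits of the replicative helicase rose, MCM2 and MCM5 by 0.58 and 0.60, MCM3, MCM4 and MCM6 by 0.49, 0.51 and 0.48, and MCM7 by 0.60, from 224 and 220 to 335 and 337 CPM. POLD1, the catalytic chain of DNA polymerase delta, rose from 47.3 and 57.6 to 94.1 and 90.5 CPM. These genes kept their call without any 1 library. PCNA, the sliding clamp, was at 100.2 and 99.0 CPM with siRNA and 119 and 119 CPM with endotrophin and was not called, and CCNE1, the G1/S cyclin, was level at 13.3 and 16.0 CPM against 17.0 and 12.9 CPM.

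Mitotic genes rose likewise. Of 47 genes of G2 and mitosis 32 rose (68.1%) and none fell, with a median of 0.43. Their summed level was 4961 and 4991 CPM with siRNA alone, 6627 and 6708 CPM with endotrophin and 7526 and 7414 CPM in control cells, so the endotrophin libraries stood between the other groups. Without 1 library the number that rose was 22, 20, 21 and 17, and by limma on log2(FPKM + 1) it was 19. CDC20, which activates the anaphase-promoting complex, was at 117 and 129 CPM with siRNA, 187 and 216 CPM with endotrophin and 258 and 295 CPM in control cells. MYBL2, a transcription factor of late cell-cycle genes, rose by 0.99, AURKB, a kinase of the centromere, by 0.79, NUSAP1, a spindle protein, by 0.61, and TOP2A, a DNA topoisomerase, by 0.44 on the log2 scale, each kept without any 1 library. The single member with a negative difference was CDC25B (-0.11), a phosphatase that starts mitosis, which was not called. Of 19 regulators of G1, CDK2 (0.40) and RBL1 (0.59) rose and E2F5 (-0.75) fell, and all 3 were lost without endotrophin replicate 2, at adjusted p of 0.234, 0.252 and 0.196. Without siRNA replicate 1 the adjusted p of CDK2 was 0.401 and of RBL1 0.0538, without siRNA replicate 2 that of RBL1 was 0.311 and of E2F5 0.361, and without endotrophin replicate 1 the 3 values were 0.0973, 0.0828 and 0.164.

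**Figure D4:**
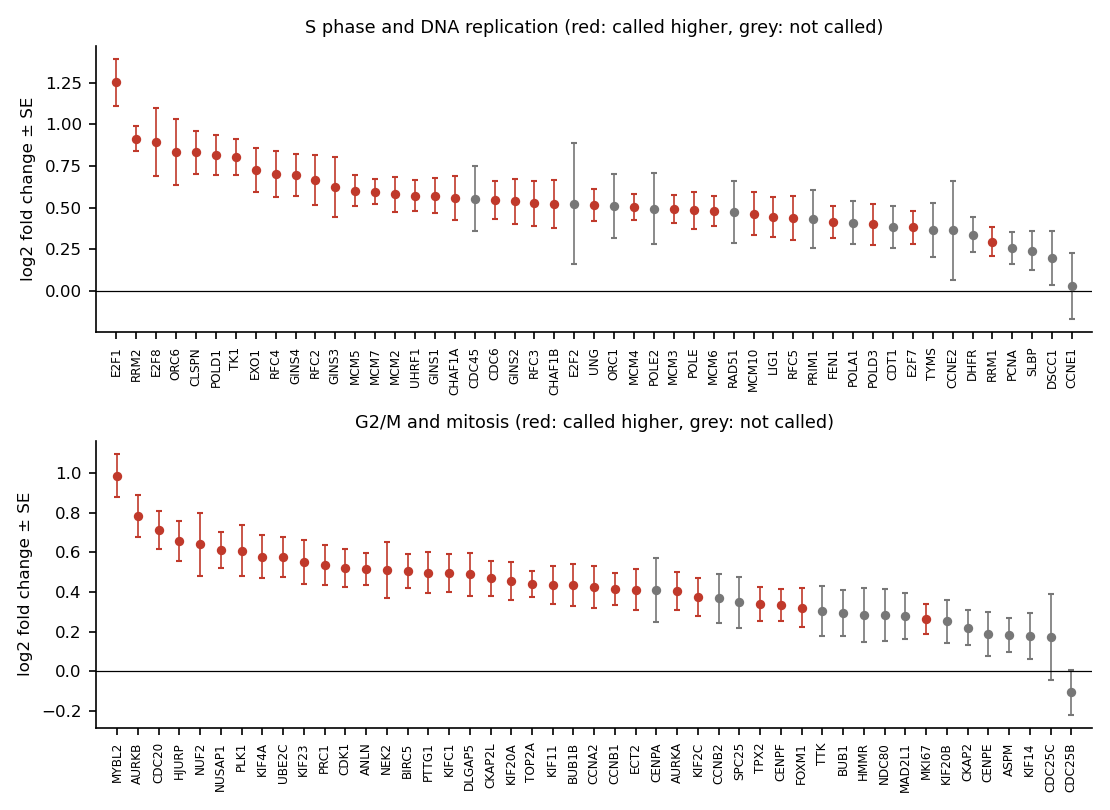
Log2 fold change with endotrophin (point) with its standard error (bar) for the 49 S-phase genes (top) and the 47 genes of G2 and mitosis (bottom), ordered by size. All 49 S-phase genes and 46 of the 47 mitotic genes lie above 0; red marks the 34 and 32 that passed the test.

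Stretches of the promoters of replication and mitotic genes are shown for the same reason, with the table, build and direction as before. In the first set capitals mark TTTNNCGC or its reverse GCGNNAAA, the core of an E2F site, and neighbouring matches can overlap. They are E2F1 at chr20:33686386-33686424 (minus), MCM7 at chr7:100101398-100101431 (minus), UHRF1, which keeps DNA methylation through replication, at chr19:4909462-4909500 (plus) and MCM3 at chr6:52284860-52284917 (minus).
E2F1: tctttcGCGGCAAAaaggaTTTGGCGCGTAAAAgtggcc
MCM7: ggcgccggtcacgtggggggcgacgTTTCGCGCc
UHRF1: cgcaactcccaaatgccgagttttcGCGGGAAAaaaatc
MCM3: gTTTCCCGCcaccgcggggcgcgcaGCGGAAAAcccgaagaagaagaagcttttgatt
In the second set capitals mark TTTGAA or its reverse TTCAAA, the cell-cycle homology region read by the DREAM complex. They are CDC20 at chr1:43358891-43358946 (plus), TOP2A at chr17:40418017-40418072 (minus), HJURP, a histone chaperone of the centromere, at chr2:233854616-233854671 (minus) and ANLN, an actin binder of the dividing cell's furrow, at chr7:36389817-36389861 (plus).
CDC20: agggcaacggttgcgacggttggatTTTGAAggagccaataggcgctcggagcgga
TOP2A: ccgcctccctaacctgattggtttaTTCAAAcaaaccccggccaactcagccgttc
HJURP: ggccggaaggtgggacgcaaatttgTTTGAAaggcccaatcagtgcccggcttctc
ANLN: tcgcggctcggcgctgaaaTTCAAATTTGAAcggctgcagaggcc
The E2F letters stood in 18 of the 40 S-phase genes with a promoter in the table (45.0%), in 4 of 41 mitotic genes (9.76%) and in 10.8% of all tested genes with one. The TTTGAA letters stood in 21 of the 41 mitotic genes (51.2%), in 2 of the 40 S-phase genes (5.00%) and in 12.1% of all.

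Genes of the cytoskeleton and of the serum response factor, which reads the state of actin, rose in larger part than they fell. Of 34 tested, 18 rose (52.9%) and 2 fell, with a median of 0.23, and without 1 library 10, 11, 10 and 9 rose. ACTB, cytoplasmic actin, was at 1955 and 1887 CPM with siRNA, 2532 and 2919 CPM with endotrophin and 2502 and 2726 CPM in control cells (log2 0.50, SE 0.057, edgeR quasi-likelihood adjusted p = 5.50e-06). CALD1, an actin-binding protein of smooth muscle, rose from 57.9 and 53.1 to 109 and 108 CPM, and TAGLN2 from 395 and 443 to 641 and 681 CPM. TAGLN, a smooth-muscle actin binder, rose from 3.21 and 3.56 to 13.2 and 12.2 CPM (1.90), with an adjusted p of 0.0731 by limma on log2(FPKM + 0.1). CAV1, the coat protein of caveolae, rose by 0.52, while CAVIN2, another caveolar protein, fell from 128 and 114 to 80.6 and 77.6 CPM (-0.61). MYLK, the myosin light chain kinase, was the other gene of the list that fell (-0.32), at an adjusted p of 0.0902, 0.135, 0.0942 and 0.234 without 1 library, so that 1 of the 34 fell in each of those fits. With limma on log2(FPKM + 1), 6 of the 34 rose and 1 fell. Keratins KRT8 and KRT18, the 2 of 15 epithelial genes called, rose by 0.50 and 0.51 on the log2 scale.

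Of 32 genes that respond to TGF-beta, 9 rose (28.1%, against 4.41% of all genes) and 1 fell (3.13%, close to the 3.36% of all genes), with a median of 0.23, and without 1 library 4, 6, 4 and 5 rose and none fell. ADAM19, a membrane metalloprotease, rose from 149 and 168 to 258 and 255 CPM (log2 0.70, SE 0.088, edgeR quasi-likelihood adjusted p = 2.10e-05), and COL4A1 of the basement membrane from 97.0 and 106 to 166 and 156 CPM. JUNB, an AP-1 subunit, was the gene that fell (-0.77), at an adjusted p of 0.0820, 0.139, 0.168 and 0.0913 without 1 library. Of 22 mesenchymal genes 8 rose (36.4%, against the same 4.41%) and none fell, and without 1 library 4, 4, 3 and 4 rose. The list's median against control cells was 0.55 with siRNA alone and 0.80 with siRNA and endotrophin, comparisons that share libraries with this one. AXL, a receptor kinase, went the other way against control. It rose from 524 and 615 to 779 and 772 CPM (0.45), still under the 1049 and 1249 CPM of control cells. By limma on log2(FPKM + 1) the adjusted p of AXL was 0.0930. With that test 2 of the 22 mesenchymal genes rose, and of the 32 TGF-beta genes 5 rose and 1 fell. FN1 and TAGLN stood in both of these lists.

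The matrix itself changed in a few components. Of 18 collagens other than collagen VI 5 rose (27.8%, against 4.41% of all genes) and 1 fell (5.56%, against 3.36%), and without 1 library 2, 2, 2 and 2 rose. COL4A6 was the one that fell (-0.90), with an adjusted p of 0.135, 0.0744 and 0.255 without siRNA replicate 1, siRNA replicate 2 and endotrophin replicate 2. COL4A2 rose from 162 and 183 to 291 and 255 CPM and COL4A1 as given above, and these were the 2 kept in every such fit. Of 39 matrix glycoproteins 9 rose (23.1%) and 1 fell (2.56%, under the share of all genes), and without 1 library 2, 9, 2 and 6 rose. FN1, fibronectin, was at 5533 and 6073 CPM with siRNA and 7198 and 6604 CPM with endotrophin (0.25). Control cells had 2728 and 2916 CPM, far under both. The call of FN1 was lost without siRNA replicate 1 or endotrophin replicate 1. THBS1, thrombospondin 1, was the glycoprotein that fell (-0.17), and its adjusted p was 0.264, 0.0825 and 0.344 without siRNA replicate 2, endotrophin replicate 1 and endotrophin replicate 2. With limma on log2(FPKM + 1), 2 of the 18 collagens and 1 of the 39 glycoproteins rose, and none fell. LOXL2, which crosslinks collagen, rose from 408 and 442 to 727 and 673 CPM (log2 0.72, SE 0.070, edgeR quasi-likelihood adjusted p = 7.92e-07).

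Both activators of plasminogen and their inhibitors moved. Of 35 matrix proteases and inhibitors 7 rose (20%, against 4.41% of all genes) and 3 fell (8.57%, against 3.36%). PLAU, urokinase, rose from 94.3 and 82.4 to 164 and 183 CPM, beside 151 and 140 CPM in control cells. SERPINB2, an inhibitor of urokinase, rose from 38.6 and 37.2 to 75.9 and 84.1 CPM, and ADAMTS1, a secreted matrix protease, from 274 and 313 to 505 and 482 CPM. TIMP2, an inhibitor of matrix metalloproteases, fell from 663 and 668 to 523 and 467 CPM (-0.43), and SERPINE2, an inhibitor of thrombin and plasminogen activators, fell by 0.52 on the log2 scale. MMP17, a membrane-bound metalloprotease, fell by 0.82, with an adjusted p of 0.360 without siRNA replicate 2 and 0.392 without endotrophin replicate 2.

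**Figure D5:**
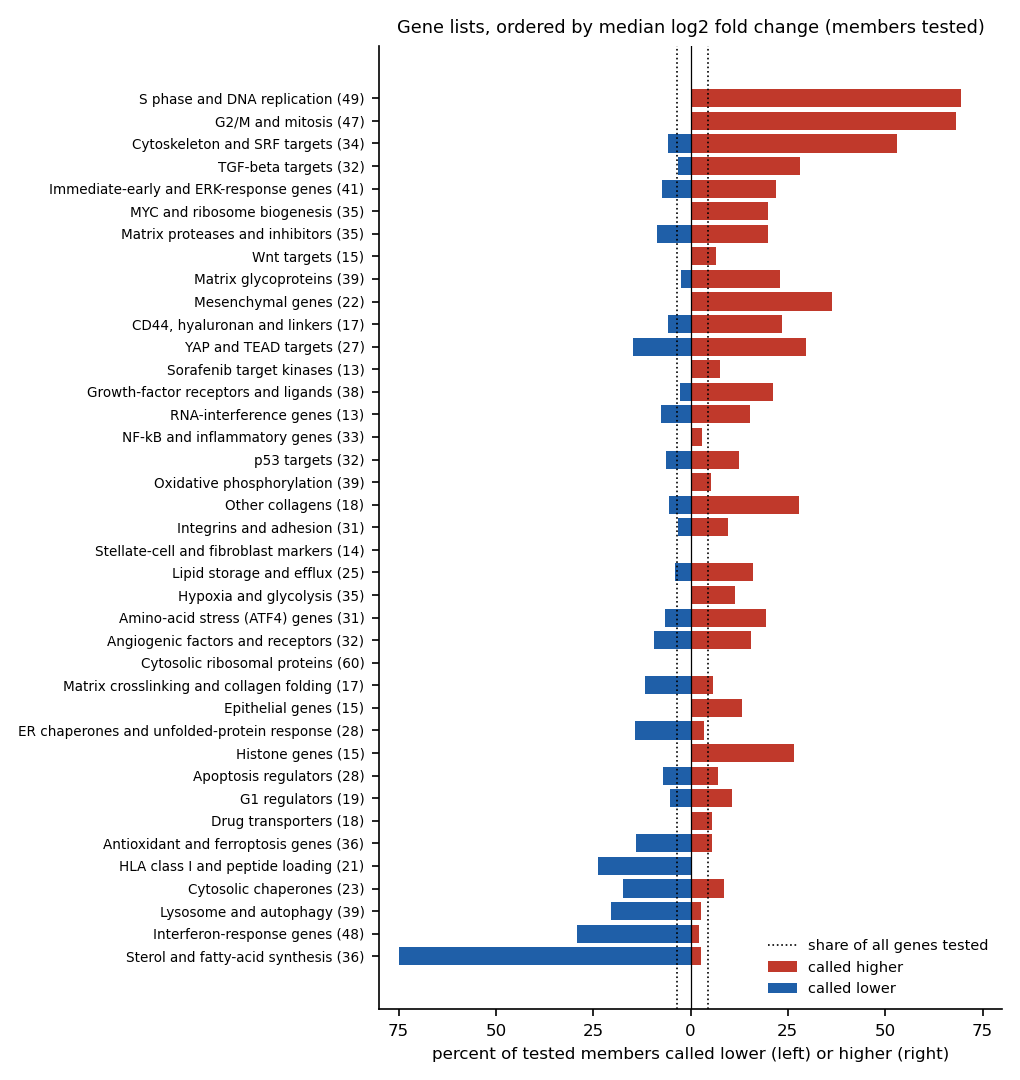
Share of the tested members of each list called higher (red, right) or lower (blue, left) with endotrophin, for lists of at least 10 tested genes, ordered by median log2 fold change; the number tested is in parentheses and dotted lines mark 4.41% and 3.36%, the shares of all genes. S-phase genes stand at one end with 69.4% higher and sterol genes at the other with 27 of 36 lower.

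Growth-factor genes were mostly binding proteins and ligands. Of 38 tested, 8 rose (21.1%, against 4.41% of all genes) and 1 fell (2.63%, against 3.36%), and 2 fell without endotrophin replicate 1. Besides IGFBP3 and IGFBP5, IGFBP1 rose from 16.0 and 17.6 to 30.6 and 32.9 CPM. The ligands EREG and NRG1, which bind receptors of the EGF family, rose by 0.63 and 0.57, with adjusted p of 0.0760 and 0.0621 by limma on log2(FPKM + 1). IGF2R, which clears IGF2 and sorts lysosomal enzymes, fell from 223 and 238 to 156 and 138 CPM. EDN1, the vasoconstrictor endothelin, rose from 16.2 and 11.7 to 34.8 and 28.8 CPM, and SPP1, osteopontin, a ligand of CD44 and integrins, fell from 325 and 304 to 156 and 163 CPM (-0.98), where control cells had 277 and 294 CPM.

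Targets of YAP, the Hippo pathway's transcriptional partner, were split. Of 27 tested, 8 rose (29.6%, against 4.41% of all genes) and 4 fell (14.8%, against 3.36%), among them IGFBP3 and FSTL1 upward and ANKRD1, from 61.1 and 64.7 to 34.8 and 37.4 CPM, downward. Without endotrophin replicate 2, 5 rose and 2 fell. MYOF, a membrane repair protein, fell from 837 and 879 to 669 and 590 CPM, and ASAP1, a regulator of focal adhesions, rose by 0.45. Of 41 immediate-early and ERK-response genes 9 rose (22.0%) and 3 fell (7.32%), and without 1 library 4, 6, 5 and 3 rose and 1, 1, 0 and 0 fell. EGR1, an early growth-response factor, rose from 5.89 and 4.08 to 12.7 and 15.3 CPM, with control cells at 16.1 and 18.9 CPM, and it kept its call without any 1 library, as did IER5 (0.58).

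Interferon-response genes were lower. Of 48 tested, 14 fell (29.2%, against 3.36% of all genes) and 1 rose, with a median of -0.36, and without 1 library 7, 8, 7 and 5 fell and none rose. The list's median against control cells was 0.52 with siRNA alone and 0.27 with siRNA and endotrophin, comparisons that share libraries with this one. STAT2, a transcription factor of the interferon pathway, fell from 89.96 and 77.7 to 50.4 and 38.7 CPM (log2 -0.91, SE 0.14, edgeR quasi-likelihood adjusted p = 0.000172). Unlike the list's median, STAT2 with endotrophin lay below control cells, which had 72.6 and 63.9 CPM. So did OAS3 and PLSCR1, given next, where control cells had 68.1 and 74.4 CPM and 33.3 and 38.3 CPM. PARP14 with endotrophin overlapped control cells, at 91.0 and 79.9 CPM. PARP14 fell from 128 and 153 to 86.2 and 92.5 CPM, OAS3, a sensor of double-stranded RNA, from 67.8 and 69.5 to 44.8 and 46.4 CPM, and PLSCR1 from 38.3 and 40.5 to 25.5 and 25.2 CPM, and these 4 kept the call without any 1 library. OAS1 was at 9.45 and 4.47 CPM with siRNA and 2.31 and 2.00 CPM with endotrophin (-1.68), with an adjusted p of 0.107 without siRNA replicate 1. SAMD9 was the gene that rose (0.48), at an adjusted p of 0.120, 0.0828, 0.157 and 0.0617 without 1 library. Of 21 genes of class I antigen presentation 5 fell (23.8%) and none rose, and without 1 library 2, 4, 1 and 2 fell. ERAP2, a peptide trimmer, fell from 242 and 249 to 153 and 155 CPM. Of 33 genes of NF-kB and inflammation ICAM1 alone was called (3.03%, under the 4.41% of all genes), rising from 9.95 and 8.55 to 19.7 and 19.1 CPM.

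Lysosomal and autophagy genes fell in part. Of 39 tested, 8 fell (20.5%, against 3.36% of all genes) and 1 rose (2.56%, against 4.41%), with a median of -0.21, and without 1 library 7, 5, 4 and 5 fell. SQSTM1, the autophagy receptor p62, was at 1220 and 1214 CPM with siRNA, 662 and 681 CPM with endotrophin and 662 and 707 CPM in control cells (log2 -0.86, SE 0.060, edgeR quasi-likelihood adjusted p = 4.94e-09). NEU1, a lysosomal sialidase, fell from 71.2 and 86.7 to 39.2 and 38.7 CPM, with an adjusted p of 0.0601 by limma on log2(FPKM + 1), and TPP1, a lysosomal peptidase, from 195 and 181 to 132 and 127 CPM. ULK1, a kinase that starts autophagy, was the gene that rose (0.50), with an adjusted p of 0.373 without siRNA replicate 1 and 0.496 without endotrophin replicate 1. GPNMB, a glycoprotein of lysosome-related organelles, had 90 and 75 counts with siRNA and 0 in both endotrophin libraries, at least 31.8-fold lower against a floor of 3 counts in each library. It was at 0 and 0.126 CPM in control cells, so the siRNA-only libraries were the ones that stood apart. That bound would be smaller if the counting took both reads of each pair, on which the sources used here are silent. MME, the membrane peptidase neprilysin, fell from 805 and 808 to 464 and 463 CPM.

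Some protein folding and stress genes changed. Of 23 cytosolic chaperones 4 fell (17.4%, against 3.36% of all genes) and 2 rose (8.70%, against 4.41%), and without 1 library 0, 0, 1 and 0 rose. HSPA8, the constitutive Hsp70, was at 1937 and 1925 CPM with siRNA, 1353 and 1389 CPM with endotrophin and 2506 and 2554 CPM in control cells (log2 -0.49). HSPA1A and HSPA1B fell by 0.86 and 1.19 on the log2 scale, but these near-identical copies share reads and their separate values are uncertain. Of 31 genes of the ATF4 amino-acid response 6 rose (19.4%) and 2 fell (6.45%). PHGDH, the first enzyme of serine synthesis, rose from 26.6 and 32.0 to 54.1 and 63.5 CPM, beside 53.9 and 53.2 CPM in control cells. MTHFD2, a mitochondrial folate enzyme, rose by 0.63, while STC2, a secreted glycoprotein, fell from 109 and 109 to 56.2 and 55.1 CPM and DDIT4, an inhibitor of mTORC1, from 36.7 and 42.9 to 22.3 and 18.9 CPM. Of 36 antioxidant and ferroptosis genes 5 fell (13.9%) and 2 rose (5.56%, close to the 4.41% of all genes), and without endotrophin replicate 2, 3 fell and 1 rose; without siRNA replicate 1, 1 rose. ACSL3 and ACSL4, which activate long-chain fatty acids, fell by 0.54 and 0.46, and GPX1, a glutathione peroxidase, rose from 221 and 243 to 315 and 369 CPM.

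Genes of ribosome assembly and MYC leaned upward, with 7 of 35 higher (20%, against 4.41% of all genes), none lower and a median of 0.20, and without 1 library 4, 4, 2 and 3 rose. BOP1, a ribosome assembly factor, rose from 86.5 and 118 to 160 and 164 CPM, and ODC1, the first enzyme of polyamine synthesis, from 151 and 146 to 200 and 201 CPM. None of the 60 cytosolic ribosomal protein genes was called, and their median was 0.02. Without siRNA replicate 2, however, 1 rose and 8 fell. Of 32 p53 targets 4 rose (12.5%, against 4.41% of all genes) and 2 fell (6.25%, against 3.36%), and without 1 library 1, 1, 1 and 1 rose and 1, 0, 0 and 1 fell. PLK2, a kinase induced by p53, was the 1 that rose in each of those fits, and it went from 384 and 379 to 498 and 498 CPM. BIRC5, the apoptosis inhibitor survivin and also a mitotic protein, rose from 162 and 152 to 218 and 228 CPM and kept its call without any 1 library.

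Several of the largest falls were in transcripts at low levels. ENPP5, GDPD1, CLEC2B, HPSE, which cuts heparan sulphate, and the long non-coding RNA LOC105377267 fell, with log2 differences of -1.96, -1.96, -1.93, -1.79 and -1.83, from levels of at most 10.0 CPM. OLFML2B, CDKL2, DGKI, FZD1, a Wnt receptor, and PAQR8, a progestin receptor, fell, with differences of -1.63, -1.62, -1.503, -1.42 and -1.42. With siRNA alone PAQR8 was at 14.2 and 20.9 CPM, and OLFML2B, CDKL2, DGKI and FZD1 were at most at 9.11 CPM. Each of these 10 lost its call without at least 1 library. Without siRNA replicate 1 the adjusted p was 0.163 for ENPP5, 0.0979 for GDPD1, 0.102 for CLEC2B, 0.0651 for HPSE, 0.229 for LOC105377267, 0.224 for OLFML2B, 0.104 for CDKL2, 0.255 for DGKI and 0.0737 for FZD1. For PAQR8 it was 0.0865 without siRNA replicate 2 and 0.0582 without endotrophin replicate 1. Without siRNA replicate 2 it was 0.0654 for ENPP5, 0.107 for HPSE, 0.0645 for LOC105377267, 0.0818 for OLFML2B, 0.0514 for CDKL2, 0.131 for DGKI and 0.342 for FZD1. Without endotrophin replicate 1 it was 0.166 for GDPD1, 0.116 for CLEC2B, 0.169 for HPSE, 0.104 for LOC105377267, 0.179 for OLFML2B, 0.174 for DGKI and 0.0720 for FZD1, and without endotrophin replicate 2 it was 0.221 for ENPP5, 0.0681 for HPSE, 0.154 for LOC105377267, 0.138 for OLFML2B, 0.181 for CDKL2, 0.277 for DGKI and 0.344 for FZD1.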

How the data were processed

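Poly(A) RNA-seq was measured in 8 SK-Hep1 libraries, 2 in each of 4 groups assigned from the labels. The authors deposited a table of counts per gene, not normalized, and a table of FPKM values. The genome build is GRCh38 per the submitters' processing notes; the sources used here do not name aligner, counter, annotation or strandedness, so antisense and overlapping genes are uncertain.

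The counts entered edgeR 4.0.16 under R 4.3.3. The filterByExpr filter over all 8 libraries kept 15684 genes, TMM scaled the libraries (factors 0.981 to 1.02), and the quasi-likelihood fit had 1 term for each group and 4 residual degrees of freedom (common coefficient of variation 0.220). Tests were 2-sided, with Benjamini-Hochberg adjustment over all genes tested. Using all 4 groups pools their spread. Differences between replicates exceeded counting noise (chi-square per degree of freedom 17.9 and 15.0). The mean of a group rests on its 2 libraries, while the spread is shared over groups and drawn toward that of other genes (prior degrees of freedom 17.4).

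The 45 gene lists, the members and the tests were chosen with earlier results of these data known. Lists can share members, such as COL4A1 in the TGF-beta and collagen lists, so their counts are not separate results. Named genes are COL6A3, COL6A1, COL6A2, CD44, ANTXR1 and CSPG4; among called genes with groups that do not overlap and a mean of at least 1 CPM, the 12 largest changes and 6 smallest adjusted p in each direction; and up to 5 called genes by adjusted p from each list with at least 2. Other genes were named after their values were seen, to account for a list or a small count. Not all genes the rule allows are described, and a few list members are not reported here by name but stay in the counts of their lists. Gene positions and promoters are from RefSeq (GRCh38.p14); its gene table held 26998 of the symbols.

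Alternatives were RLE scaling, DESeq2 1.42.0, no filter, a stricter filter, the 4 libraries alone, a replicate block, halved counts, limma 3.58.1 on log2(FPKM + 1) and log2(FPKM + 0.1), and leaving out each of the 4 libraries. The main fit did not pair samples by replicate number (correlation of the deviations of endotrophin 1 with siRNA 1 0.00293).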

Additional observations from a re-analysis of the deposited data

How the results depend on the processing

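In 13 alternative settings no called gene named in the text changed sign, and COL6A1, not called, turned to 0.031 without siRNA replicate 2 and was -0.126 without siRNA replicate 1. The count of genes changed was 1212 with RLE scaling, 1487 by DESeq2, 1516 with no filter, 1326 with a stricter filter and 1342 with halved counts. With the 4 libraries of the comparison alone, 803 genes were lower and 174 changed at least 2-fold. By limma on log2(FPKM + 1), 494 genes changed, 240 higher and 254 lower, 39 of them at least 2-fold. With a pseudocount of 0.1 the counts were 490, 241 and 249. Leaving out 1 library gave 441 to 688 genes changed, 247 to 390 higher, 194 to 298 lower and 71 to 103 at least 2-fold; such a fit assumes that the lone library varies like the other groups. Fewer samples enter those fits, and the cause of the lower FPKM counts was not tested.

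The labels do not say whether samples with the same replicate number share a culture. With a replicate block 1368 genes changed, 772 higher and 596 lower, 120 of them at least 2-fold; deviations of same-numbered samples correlated at 0.00293.

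Limits are the 2 libraries per group, 1 line, 1 batch, and depths at which genes under 1 CPM rest on 31.7 to 43.7 counts or fewer.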

Other observations

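Groups tied to the design of the study or of the assay are read against the 4.41% of all genes that rose and the 3.36% that fell. The drug transporter that rose is ABCA1, the cholesterol pump already counted under lipid storage and efflux. Of 13 kinases that sorafenib targets 1 rose (7.69%) and none fell, with a median log2 difference of 0.13 (0, 1, 0 and 0 rose without siRNA replicate 1, siRNA replicate 2, endotrophin replicate 1 and endotrophin replicate 2), and of 18 drug transporters 1 rose (5.56%) and none fell, with a median of -0.08. Of 17 genes of CD44, hyaluronan and their linkers 4 rose (23.5%) and 1 fell (5.88%), and 1 rose in each of those 4 fits. Of 39 genes of oxidative phosphorylation 2 rose (5.13%), with a median of 0.06, and without 1 library none rose in any of the 4 fits. Of 13 genes of RNA interference, which an siRNA engages, 2 rose (15.4%) and 1 fell, 7.69% (0, 1, 0 and 1 rose and 0, 1, 0 and 0 fell in those fits), and AGO2, which holds the guide strand, was at 96.1 and 103 CPM with siRNA alone and at 141 and 119 CPM with endotrophin (log2 0.39), with an adjusted p of 0.218, 0.0827 and 0.352 without siRNA replicate 1, siRNA replicate 2 and endotrophin replicate 1.

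Among glycolytic genes PGAM1 rose from 288 and 336 to 445 and 436 CPM and kept its call without any 1 library. Of 35 genes of hypoxia and glycolysis 4 rose (11.4%) and none fell, with a median of 0.04, and 2 rose without endotrophin replicate 2.

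Besides GPNMB, called genes at 0 in both endotrophin libraries were MOCS1, SLFN13 and KLHDC7A. Against the floor of 3 counts in each library they were at least 3.07-fold, 4.68-fold and 4.30-fold lower, and KLHDC7A was itself at 0 in siRNA replicate 1.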
